A study of Mus musculus with 6 samples.

Results

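Transcripts of chromatin remodelers, ARID-domain proteins and bromodomain proteins were followed in primary mouse liver sinusoidal endothelial cells kept as controls or loaded with cyclic hydrostatic pressure. The genes were taken by symbol: every listed symbol that begins with Smarc, Chd1 to Chd9, Arid1 to Arid5, Ino80, Baz1, Baz2 or Brd1 to Brd9, and in addition Pbrm1, Actl6a, Atrx, Bptf, Hells, Srcap and Ep400. This gave 59 of the 24421 symbols in the files, and 57 of the 59 had enough counts to be tested, among 12892 genes in all. Sinusoidal endothelium is the fenestrated lining of the liver's small vessels. The cells came from livers of mice labelled as wild genotype, were picked with magnetic beads for CD146, held overnight on collagen I and deprived of serum for 6 h, which both groups share. The pressure group (n = 3) was then cycled between 101 and 135 kPa at 0.01 Hz for 8 h. The control group (n = 3) has no stated handling over that time, so time in culture and handling cannot be told apart from pressure. Whether replicates were separate animals or cultures is not labelled. A p-value here therefore reflects no more than the spread among 6 libraries, and that spread may be technical.

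Chromatin remodelers are ATP-driven machines that slide, evict or exchange nucleosomes. They fall into the SWI/SNF, ISWI, CHD and INO80 families, each built around a catalytic ATPase of the SNF2 type with accessory subunits that steer it. ARID proteins bind AT-rich or other DNA, and several of them are SWI/SNF subunits. Bromodomains read acetylated lysines on histones, and BET proteins use them to bring the elongation kinase P-TEFb to active genes.

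Levels are in CPM, counts relative to the library's total, scaled by TMM factors that correct for library composition. Levels of different genes are compared as CPM per kilobase of exon, unless counts are named. The length used is the union of all annotated exons of a gene. It can exceed the length of any of its mRNAs, so such comparisons depend on it. Changes are log2 ratios of pressure to control, given ± SE, and a gene is said to rise or fall where its Benjamini-Hochberg adjusted p from edgeR's quasi-likelihood test, over all 12892 genes, is under 0.05. Library totals ran from 12922959 to 18655749 counts. The series changed broadly: 68.8% of all tested genes passed the threshold, 33.7% higher and 35.1% lower, and for 71.9% the 3 pressure values lay all above or all below the 3 control values. Counts among the remodelers are therefore read against these shares. With upper-quartile factors or with library totals alone, the median over the whole table shifted by -0.11 and -0.21 (log2), so smaller changes have no fixed sign. Endothelial markers summed to 5374 to 5831 CPM in controls and 4461 to 5511 CPM under pressure (9 genes), of which Kdr, Tek, Stab1, Stab2 and Clec4g fell, Mcam rose, and Pecam1, Cdh5 and Lyve1 did not pass. Macrophage markers summed to 5426 to 5961 CPM in controls and 5171 to 5604 CPM under pressure (9 genes), so the libraries also hold macrophage transcripts. Among these markers Csf1r and Marco rose, Cd5l and Vsig4 fell, and 5 did not pass. With library totals Csf1r and Marco no longer passed. Hepatocyte markers summed to 7.25 to 10.5 CPM in controls and 14.9 to 18.4 CPM under pressure (8 genes), and cholangiocyte markers to 5.22 to 5.28 and 9.22 to 12.1 CPM (5 genes). Stellate and mural markers summed to 156 to 169 and 172 to 190 CPM, where Dcn rose, Des and Acta2 fell, and 5 of 8 tested did not pass. Dendritic markers summed to 36.4 to 41.01 and 18.9 to 19.4 CPM. That difference was mostly Clec9a (mean 19.5 CPM in controls and 1.43 CPM under pressure), while Xcr1 rose and Zbtb46 did not pass. Lymphocyte markers summed to 2.78 to 4.45 and 2.46 to 4.49 CPM. Neutrophil markers summed to 8.85 to 10.9 and 4.11 to 5.57 CPM, with S100a9 and Retnlg at 0 in every library. That difference was Csf3r (mean 9.56 CPM in controls and 4.55 CPM under pressure), while S100a8 was too low to be tested (0.186 and 0.240 CPM). The part of these cells in the results was not tested, and fewer cells of a type cannot be told apart from less RNA per cell.

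Among the 57 tested genes, 26 rose, 14 fell and 17 passed in neither direction. That is 70.2% called, near the background of 68.8%, with 45.6% higher where all genes gave 33.7% and 24.6% lower where all genes gave 35.1%. The median log2 change was 0.20, against -0.015 for all genes, and the median size of change regardless of sign was 0.51, against 0.54. With library totals alone the split became 20 higher and 22 lower. Under all 4 scalings tried, 20 genes were higher (35.1% of the tested remodelers, 24.3% of all genes) and 13 were lower (22.8% and 34.1%). Calls of at least 2-fold were reached by 8 of the 57, where 23.3% of all genes reached them: Arid5a, Arid5b, Brd2, Smarce1 and Chd2 upward, and Brd7, Smarcd3 and the noncoding symbol Chd3os downward. The groups did not overlap for 42 genes (73.7%, against 71.9% of all genes). Of 54 tested partner genes, which encode other subunits or cofactors of the same complexes and are described with them below, 30 rose (55.6%) and 14 fell (25.9%); with library totals 22 rose and 16 fell.

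**Figure D1:**
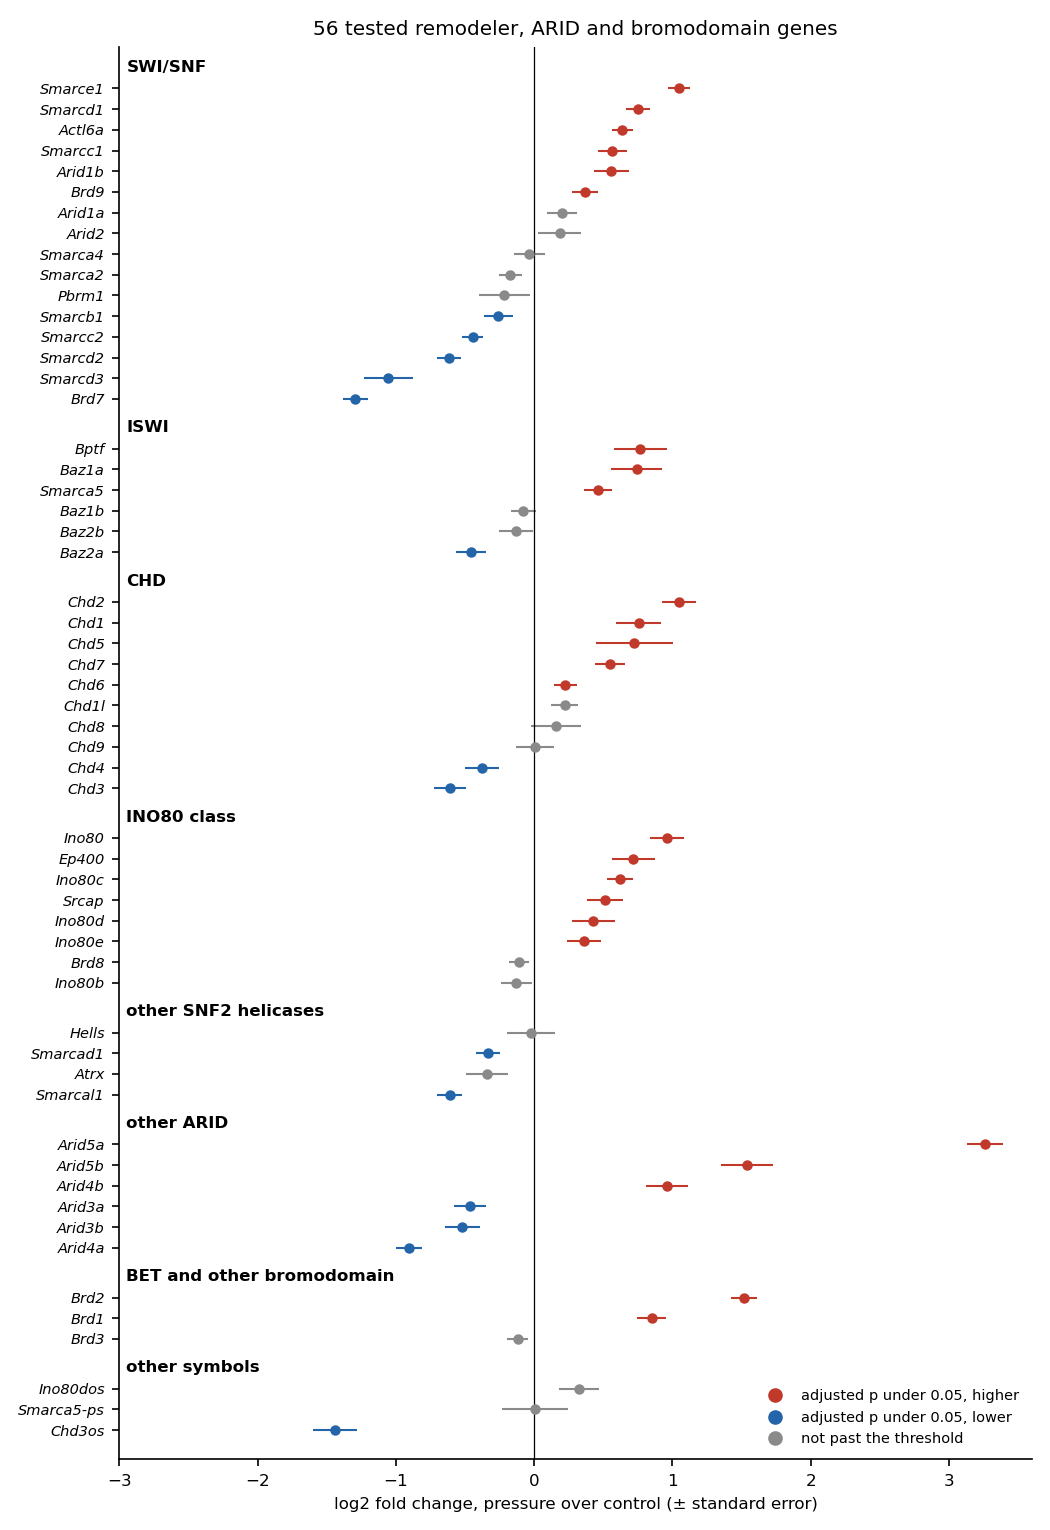
Log2 fold change (pressure over control, x axis) of 56 of the tested genes (1 per line), grouped by complex or domain family; bars are standard errors and colours give the direction of the genes past an adjusted p of 0.05. Arid5a lies far from the rest at 3.26, the INO80 class has no gene that fell, and the SWI/SNF subunits spread from 1.05 (Smarce1) to -1.29 (Brd7).

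The promoters of the 3 genes that rose most (Arid5a, Arid5b, Brd2) and of the protein-coding gene that fell most (Brd7) are shown, since these carry the largest differences described here. Each runs 5′ to 3′ on the gene's strand from 250 bases before a RefSeq start to 50 bases after it (GRCm38.p6, the build named mm10). Brd2 has 3 windows in the RefSeq table, of which the outermost is shown. Capitals mark words found in a search for binding motifs on both strands.
Arid5a (chr1:36307483-36307782, plus strand): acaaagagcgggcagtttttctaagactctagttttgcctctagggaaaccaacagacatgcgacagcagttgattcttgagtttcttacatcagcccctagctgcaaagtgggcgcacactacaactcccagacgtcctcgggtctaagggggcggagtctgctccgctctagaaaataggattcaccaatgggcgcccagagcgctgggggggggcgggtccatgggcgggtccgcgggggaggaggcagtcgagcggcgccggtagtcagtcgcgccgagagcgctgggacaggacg
Arid5b (chr10:68278677-68278976, minus strand): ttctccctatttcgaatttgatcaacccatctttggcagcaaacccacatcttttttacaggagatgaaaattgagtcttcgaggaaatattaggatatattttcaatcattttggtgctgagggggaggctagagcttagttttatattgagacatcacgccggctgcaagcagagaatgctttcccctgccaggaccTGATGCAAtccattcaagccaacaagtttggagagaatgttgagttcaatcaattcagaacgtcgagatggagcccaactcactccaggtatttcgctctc
Brd2 (chr17:34122558-34122857, minus strand): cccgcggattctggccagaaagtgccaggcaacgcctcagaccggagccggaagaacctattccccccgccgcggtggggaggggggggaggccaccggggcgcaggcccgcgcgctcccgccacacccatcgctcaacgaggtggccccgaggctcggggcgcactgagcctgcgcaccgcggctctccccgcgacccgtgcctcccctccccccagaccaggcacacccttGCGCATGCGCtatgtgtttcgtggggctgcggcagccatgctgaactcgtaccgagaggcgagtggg
Brd7 (chr8:88362123-88362422, minus strand): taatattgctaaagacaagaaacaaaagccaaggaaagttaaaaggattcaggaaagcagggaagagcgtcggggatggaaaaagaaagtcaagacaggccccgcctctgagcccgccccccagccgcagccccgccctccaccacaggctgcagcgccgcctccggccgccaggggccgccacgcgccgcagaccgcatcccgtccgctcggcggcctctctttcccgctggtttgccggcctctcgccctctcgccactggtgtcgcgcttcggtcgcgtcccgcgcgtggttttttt

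The capitals in Arid5b are TGATGCAA, a word of ATF4-C/EBP composite elements, whose first base lies 51 bases before the start, and 0.895% of all 32851 promoter windows hold it. Those in Brd2 are overlapping matches on both strands to GCGCATGCG, a word bound by NRF1, which 1.75% of all windows hold, and another Brd2 window holds AAGATGGCG, a YY1 word, as do 1.40% of all windows. The Arid5a and Brd7 windows held none of the words searched. The other words were GGACTTTCC, GGAATTTCC and GGGATTTCC (NF-kB, in 0.344%, 0.317% and 0.323% of all windows), TGACTCA (AP-1, 5.20%), TGACGTCA and TGACGTAA (CRE, 1.79% and 0.499%), CACGTG (E-box, 7.15%) and CCGGAAGT (ETS, 3.89%). Of the 59 genes, 44 matched a window, with 55 windows in all. No searched word was in more than 3 of the 55, and a match is a description of letters only.

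The ARID genes outside SWI/SNF held the widest spread of any class, with 3 of 6 tested members higher, 3 lower and none outside the threshold. Arid5a, which encodes a DNA- and RNA-binding protein known for stabilising Il6 mRNA, stood at 7.44, 9.71 and 8.92 CPM in the controls and at 94.96, 80.2 and 73.9 CPM under pressure. Every pressure library lay far above the highest control (log2 change 3.26 ± 0.13, 9.58-fold, adjusted p = 5.39e-08). Arid5b, its paralog and a cofactor of the histone demethylase Phf2, went from 57.8, 45.9 and 54.4 CPM to 197, 157 and 105 CPM (1.54 ± 0.19, adjusted p = 4.19e-05). Its lowest pressure library was replicate 3, still above all controls. In GRCm38 (GENCODE M21), Arid5a spans chromosome 1 from 36307733 to 36324029 on the plus strand and Arid5b chromosome 10 from 68092520 to 68278740 on the minus strand, both protein-coding.

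Arid4a and Arid4b, paralogs that bind the retinoblastoma protein and join Sin3 deacetylase complexes, moved in opposite directions. Arid4a fell from 54.4, 46.7 and 51.1 CPM to 29.4, 25.6 and 26.3 CPM (-0.91 ± 0.096, adjusted p = 1.41e-05). Arid4b rose from 69.6, 69.3 and 76.9 CPM to 169, 147 and 103 CPM (0.96 ± 0.15, adjusted p = 2.11e-04). Neither gene's groups overlapped. Per kilobase of exon, Arid4a was the more abundant of the pair in all 3 controls (9.04 ± 0.682 against 4.24 ± 0.254, mean ± SD) and the less abundant in all 3 pressure libraries (4.82 ± 0.356 against 8.23 ± 1.96). In counts not divided by length, Arid4b was the higher in every library. The mean log2 ratio of Arid4a to Arid4b was -0.50 in controls and -2.34 under pressure. The order in controls therefore depends on the lengths used (5615 and 16965 exonic bases). The Arid3 genes, which encode AT-rich DNA-binding factors first known from B cells, fell at lower levels. Arid3a went from 22.6, 21.6 and 23.9 CPM to 15.9, 14.6 and 18.99 CPM (-0.47 ± 0.12, adjusted p = 0.00429), and Arid3b from 7.64, 8.27 and 8.00 CPM to 5.42, 5.96 and 5.24 CPM (-0.52 ± 0.13, adjusted p = 0.00402). Arid3c had 1 count in a single control library and none elsewhere, and was not tested.

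**Figure D2:**
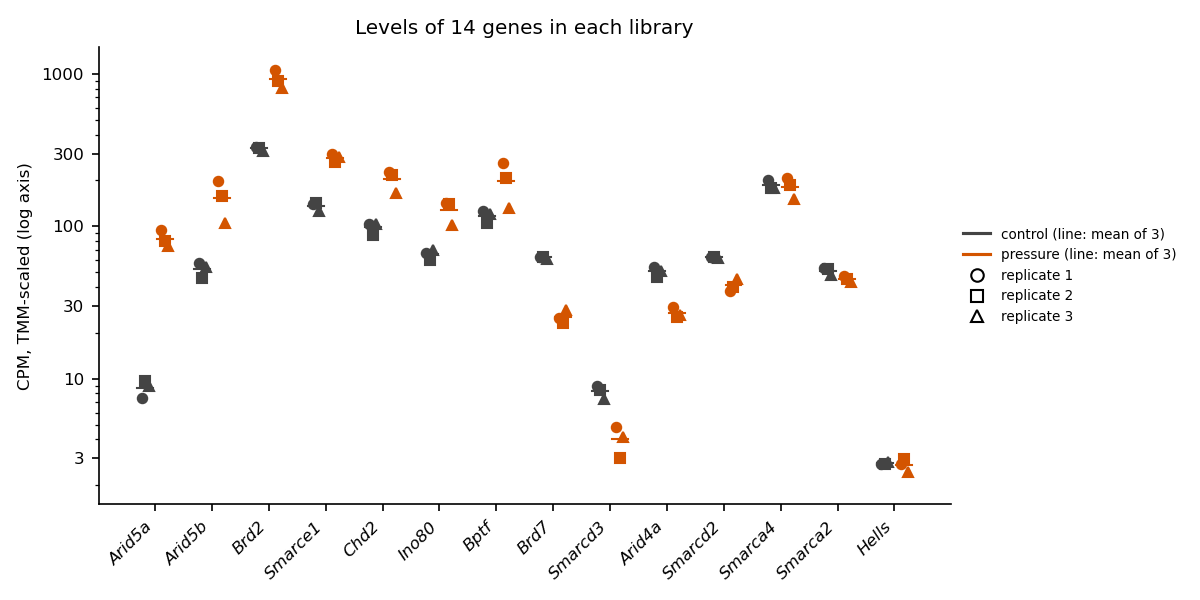
CPM (TMM-scaled, log axis) of 14 of the genes in each of the 6 libraries, with grey symbols for control, orange for pressure, a shape for each replicate number and a line at the mean of 3. Arid5a moves by close to 10-fold, Smarca4 and Hells overlap between the groups, and for Bptf the pressure libraries spread from 131 to 259 CPM.

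Among bromodomain genes outside the remodeler complexes, Brd2 and Brd1 rose and Brd3 did not pass. Brd2, which reads acetylated histone H4, was the most abundant per kilobase of the genes with a known length and rose from 331, 328 and 314 CPM to 1061, 902 and 813 CPM (1.51 ± 0.094, 2.86-fold, adjusted p = 4.54e-07). Brd1, a scaffold of histone acetyltransferase complexes and not a BET protein, rose from 83.3, 80.96 and 85.4 CPM to 173, 148 and 129 CPM (0.85 ± 0.11, adjusted p = 4.07e-05). In both genes replicate 3 was the lowest pressure library and the groups did not overlap. Brd3 ranged over 61.8 to 64.1 CPM in controls and over 55.7 to 60.1 CPM in pressure libraries (-0.12 ± 0.075, adjusted p = 0.180), and passed as lower with upper-quartile factors (adjusted p = 0.0191) and with library totals (0.00243). Brd2 spans chromosome 17 from 34112023 to 34122634 on the minus strand. It shares 360 exonic bases with H2-DMa on the other strand, which stood at 5.11 CPM in controls.

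All 6 tested genes that work with BET proteins rose: Brdt, the BET gene of germ cells, and Cdk9, Ccnt1, Ccnt2, Hexim1 and Larp7, which form P-TEFb or hold it inactive in the 7SK particle. Hexim1, the P-TEFb inhibitor, went from 47.0 ± 2.82 to 213 ± 40.7 CPM (2.18 ± 0.13, adjusted p = 3.31e-07). Cdk9, the kinase, went from 80.5 ± 1.02 to 140.5 ± 12.5 CPM (0.80 ± 0.084, adjusted p = 1.24e-05), and Larp7, which binds 7SK RNA, from 36.97 ± 0.481 to 50.9 ± 1.69 CPM (0.46 ± 0.078, adjusted p = 3.91e-04). With library totals, Ccnt2 (log2 change 0.068) and Brdt (0.81) no longer passed (adjusted p = 0.545 and 0.102). Brdt was at 0.643 ± 0.364 CPM in controls.

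Subunits of SWI/SNF, the BAF and PBAF complexes that evict nucleosomes at enhancers and promoters, moved apart: 6 of 16 rose (37.5%), 5 fell (31.2%) and 5 did not pass, close to the shares of all genes. With library totals 5 rose and 7 fell. The catalytic pair did not pass. Smarca4 (BRG1) measured 201, 179 and 179 CPM in controls against 209, 187 and 150 CPM under pressure (-0.035 ± 0.11, adjusted p = 0.792), and Smarca2 (BRM) at 52.9, 52.6 and 47.97 CPM and 47.4, 45.3 and 43.4 CPM (-0.17 ± 0.083, adjusted p = 0.0851). The Smarca4 groups overlapped and those of Smarca2 did not, and Smarca2 passed as lower with upper-quartile factors (adjusted p = 0.00988) and with library totals (0.00144). Per kilobase, Smarca4 stood well above Smarca2 in every library (28.8 ± 1.95 against 3.58 ± 0.193 in controls).

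Among core and accessory SWI/SNF subunits the largest rise was that of Smarce1 (BAF57, an HMG-box DNA-binding subunit), from 140, 142 and 126 CPM to 298, 263 and 284 CPM (1.05 ± 0.081, adjusted p = 1.59e-06). Smarcd1 (BAF60a) rose from 44.9, 44.5 and 38.8 CPM to 72.2, 74.1 and 69.8 CPM (0.75 ± 0.085, adjusted p = 2.22e-05). Its paralogs Smarcd2 and Smarcd3, which occupy the same position in the complex, fell. Smarcd2 (BAF60b) went from 62.9, 63.2 and 62.2 CPM to 37.8, 40.2 and 45.03 CPM (-0.62 ± 0.087, adjusted p = 1.04e-04), and Smarcd3 (BAF60c) from 8.99, 8.43 and 7.40 CPM to 4.798, 3.04 and 4.18 CPM (-1.06 ± 0.18, adjusted p = 3.37e-04). None of the 3 genes' groups overlapped. Per kilobase, Smarcd1 was below Smarcd2 in all controls (10.6 ± 0.850 against 17.5 ± 0.146) and above it in all pressure libraries (17.9 ± 0.540 against 11.4 ± 1.03). The Smarcd3 value is uncertain, since 2466 of its exonic bases lie opposite exons of Chpf2, which rose by 0.62.

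The scaffold paralogs also went apart: Smarcc1 (BAF155) rose from 106, 94.0 and 109 CPM to 165, 162 and 129 CPM (0.57 ± 0.11, adjusted p = 6.91e-04). Smarcc2 (BAF170), the most abundant SWI/SNF gene per kilobase in controls, fell from 194, 186 and 176 CPM to 144, 131 and 133 CPM (-0.45 ± 0.076, adjusted p = 3.73e-04). Per kilobase Smarcc2 remained above Smarcc1 in every library, at 24.5 ± 1.26 against 19.4 ± 2.54 under pressure. Actl6a (BAF53a), an actin-related subunit, rose from 79.1, 85.2 and 84.2 CPM to 137, 128 and 122 CPM (0.64 ± 0.078, adjusted p = 3.76e-05). It shares 452 exonic bases with Mrpl47 on the other strand, which rose by 0.58. Smarcb1 (BAF47), a core subunit, passed narrowly as lower (-0.26 ± 0.11, adjusted p = 0.0491) with overlapping groups, and the call was lost with DESeq2 (0.0767) and with any of 5 libraries left out.

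Subunits that set the form of the complex differed too. Brd7, found in PBAF, fell from 62.9, 63.1 and 61.3 CPM to 25.2, 23.2 and 28.2 CPM (-1.29 ± 0.092, adjusted p = 9.83e-07), the largest fall of a protein-coding gene among the 57. Brd9, which marks the non-canonical form, rose from 33.4, 38.6 and 34.8 CPM to 48.5, 42.1 and 47.2 CPM (0.37 ± 0.095, adjusted p = 0.00533), a call lost with library totals (0.169). Per kilobase Brd7 exceeded Brd9 in all controls (11.9 ± 0.191 against 5.12 ± 0.387) and was below it in all pressure libraries (4.87 ± 0.475 against 6.61 ± 0.483). Brd7 spans chromosome 8 from 88331039 to 88362194 on the minus strand. Of the other genes of PBAF subunits, Pbrm1 (-0.22 ± 0.18, adjusted p = 0.313; 0.0477 as lower with library totals) and Arid2 (0.18 ± 0.15, adjusted p = 0.305), did not pass, while without pressure replicate 3 Arid2 passed as higher (0.36, adjusted p = 2.01e-04). Of the canonical ARID subunits, Arid1b rose (0.56 ± 0.13, adjusted p = 0.00273). Arid1a did not pass (0.20 ± 0.11, adjusted p = 0.120), but passed as higher without pressure replicate 3 (0.31, adjusted p = 5.24e-04). Of 9 tested SWI/SNF partner subunits outside the symbol rule, 3 rose and 2 fell (3 and 3 with library totals). Phf10, a PBAF subunit, changed by 0.70 ± 0.078 (adjusted p = 2.06e-05), and Bcl7b and Bcl7a, paralogous small subunits, by 0.73 ± 0.088 (adjusted p = 3.55e-05) and -1.11 ± 0.11 (adjusted p = 7.77e-06).

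Ratios of related genes within a library do not depend on library scaling, and 17 pairs were compared that way. A library deviation that follows gene length, described below, need not cancel where the paired genes differ in length. How far it enters the ratios was not tested. The groups did not overlap for 14 pairs. The share over pairs of other genes was not computed, and 71.9% of all single tested genes did not overlap either. The 14 pairs are therefore not read as a trait of related genes. An exact permutation test of 3 against 3 cannot go below p = 0.1 (two-sided), and each of these 14 reached that value (0.121 adjusted over the 17 pairs), so no pair could pass 0.05. Differences of at least 2-fold in the ratio were found for Arid4a over Arid4b (3.57-fold lower under pressure), Smarcd1 over Smarcd3 (3.52-fold higher), Arid5a over Arid5b (3.38-fold higher), Brd7 over Brd9 (3.17-fold lower), Brd2 over Brd3 (3.09-fold higher), Smarcd1 over Smarcd2 (2.59-fold higher) and Smarcc1 over Smarcc2 (2.01-fold higher). In Arid4a over Arid4b, Smarcd1 over Smarcd2, Baz1a over Baz1b and Brd7 over Brd9, 4 pairs in all, the order per kilobase was opposite in all controls and all pressure libraries. In counts not divided by length, Smarcd1 and Smarcd2, and Brd7 and Brd9, also switched order. Chd1 and Chd2 switched in counts only. Their log2 ratios were 0.027 to 0.043 in controls and -0.43 to -0.15 under pressure, while per kilobase Chd1 was the higher in every library. Arid4a stayed below Arid4b and Baz1a below Baz1b in every library, so the switches of Arid4 and Baz1 depend on the exonic lengths used. The ratios of Smarca2 to Smarca4, Arid3a to Arid3b and Chd8 to Chd9 overlapped between the groups (exact permutation p = 0.3, 1.0 and 0.9).

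**Figure D3:**
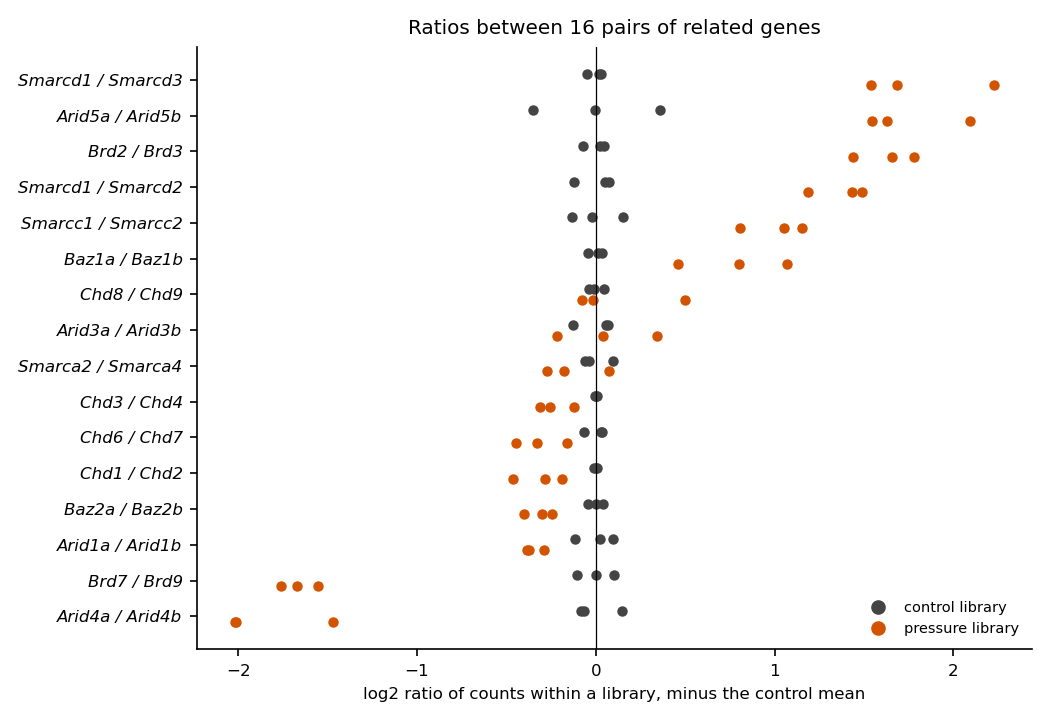
Log2 ratio of counts of 16 pairs of related genes within each library, minus the control mean of that pair (x axis), with grey points for the 3 controls and orange for the 3 pressure libraries. Pressure points lie clear of the controls in 13 of these pairs, and the ratio of Smarca2 to Smarca4 is among the 3 that overlap. The share over pairs of other genes was not computed.

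ISWI remodelers slide and space nucleosomes. Of 6 tested genes 3 rose (50.0%), 1 fell and 2 did not pass, and with library totals 3 rose and 3 fell. The ATPase gene Smarca5 (SNF2H) rose from 124, 123.2 and 131 CPM to 189, 184 and 147 CPM (0.46 ± 0.098, adjusted p = 0.00166) and was the most abundant of the class per kilobase. The other ISWI ATPase gene, Smarca1, had 1 count in a control and 1 in a pressure library and was not tested. Of the large subunits that define each ISWI complex, Bptf (NURF) rose from 126, 105 and 120 CPM to 259, 207 and 131 CPM (0.77 ± 0.19, adjusted p = 0.00479), and Baz1a (ACF1) from 92.9, 79.7 and 88.7 CPM to 189, 147 and 99.8 CPM (0.74 ± 0.18, adjusted p = 0.00424). For both, pressure replicate 3 came close to the controls without overlapping them. Baz2a (TIP5, which silences ribosomal DNA) fell from 127, 107 and 114 CPM to 94.2, 86.9 and 71.97 CPM (-0.46 ± 0.11, adjusted p = 0.00325). Baz1b (-0.080 ± 0.090, adjusted p = 0.445) and Baz2b (-0.13 ± 0.13, adjusted p = 0.372) did not pass, and both passed as lower with library totals (adjusted p = 0.0092 and 0.0227). Of 7 ISWI partner genes 5 rose and 1 fell (4 and 1 with library totals, where Rsf1 no longer passed). Chrac1, a histone-fold subunit, changed by 1.00 ± 0.11 (adjusted p = 1.66e-05), the histone chaperone Rbbp7 by 0.56 ± 0.073 (adjusted p = 6.08e-05) and Hmgxb4 by -0.79 ± 0.10 (adjusted p = 5.19e-05).

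CHD genes encode ATPases of the SNF2 type, most of them with chromodomains. Of 10, 5 rose (50.0%), 2 fell (20.0%) and 3 did not pass; with library totals 3 rose and 2 fell. The related Chd1 and Chd2, which act on transcribed genes, both rose. Chd2 went from 104, 87.7 and 104 CPM to 228, 217 and 165 CPM (1.05 ± 0.12, adjusted p = 2.95e-05), with 2628 exonic bases shared with the noncoding 1810026B05Rik on the same strand, which itself rose by 0.79 and makes the Chd2 value uncertain, and Chd1 from 107, 89.3 and 106 CPM to 205, 183 and 122.6 CPM (0.76 ± 0.16, adjusted p = 0.00173). The NuRD ATPases fell. Chd4 (Mi-2β), the most abundant CHD gene per kilobase, went from 234, 221 and 225 CPM to 214, 164 and 146 CPM (-0.38 ± 0.12, adjusted p = 0.0184), and Chd3 from 85.2, 80.0 and 82.3 CPM to 62.7, 54.8 and 44.3 CPM (-0.61 ± 0.11, adjusted p = 7.22e-04). The call of Chd4 was lost without control replicate 1 (adjusted p = 0.05875) or pressure replicate 2 (0.07456). Of 9 NuRD partner genes 4 rose and 2 fell (2 and 3 with library totals, where Mbd2 and Mbd3 no longer passed and Hdac2 was lower), with Gatad2a at 0.69 ± 0.083 (adjusted p = 3.15e-05), and Mta3 and Mta1, which encode MTA scaffolds, at -0.72 ± 0.094 (adjusted p = 5.91e-05) and -0.54 ± 0.087 (adjusted p = 2.62e-04). The MTA paralog Mta2 rose by 0.46 ± 0.082 (adjusted p = 5.32e-04).

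Of the remaining CHD genes, Chd7, an enhancer-bound remodeler mutated in CHARGE syndrome, rose by 0.55 ± 0.11 (adjusted p = 0.00112). Chd6 changed by 0.23 ± 0.085 (adjusted p = 0.0356) and Chd5 by 0.72 ± 0.28 (adjusted p = 0.0377), and both calls were lost with upper-quartile factors and with library totals. Chd5, better known from neurons, measured 1.25, 2.24 and 1.45 CPM in controls against 3.43, 2.61 and 2.05 CPM under pressure, with overlap. Chd1l, a remodeler activated by poly(ADP-ribose) (0.22 ± 0.096, adjusted p = 0.0629), Chd8 (0.16 ± 0.18, adjusted p = 0.447) and Chd9 (0.0039 ± 0.14, adjusted p = 0.981) did not pass, but without pressure replicate 3 Chd8 passed as higher (0.36, adjusted p = 9.94e-04).

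The INO80 class, whose complexes slide nucleosomes or exchange the histone variant H2A.Z, had 6 of 8 genes higher (75.0%) and none lower, with 2 not past the threshold; with library totals 3 were higher and 2 (Ino80b and Brd8) lower. All 3 large ATPase genes rose. Ino80 went from 66.3, 60.0 and 70.2 CPM to 141, 139 and 101 CPM (0.96 ± 0.13, adjusted p = 5.87e-05). Ep400, which works with the acetyltransferase Kat5, went from 114, 85.02 and 114 CPM to 195, 186 and 132 CPM (0.72 ± 0.15, adjusted p = 0.00177). Srcap, which loads H2A.Z, changed by 0.51 ± 0.13 (adjusted p = 0.00521; 0.0517 with library totals). None of these 3 genes' groups overlapped, and replicate 3 was the lowest pressure library in each. Srcap shares 9738 exonic bases on the same strand with Gm42715, a symbol without values here, so how such reads were assigned is not known.

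Of the genes Ino80b to Ino80e, which encode accessory subunits, 3 passed as higher. Ino80c, the most abundant of the class per kilobase, rose from 52.3, 60.9 and 57.7 CPM to 79.6, 87.5 and 96.2 CPM (0.62 ± 0.095, adjusted p = 1.76e-04). Ino80d (0.43 ± 0.16, adjusted p = 0.0302) and Ino80e (0.36 ± 0.12, adjusted p = 0.0217) lost their calls with upper-quartile factors and library totals, and Ino80e shares 1103 exonic bases with Doc2a on the other strand, which rose by 1.02. Ino80b (-0.13 ± 0.11, adjusted p = 0.329) and the EP400-complex subunit Brd8 (-0.11 ± 0.074, adjusted p = 0.213) did not pass. Partner subunits of the class moved both ways, with 11 of 20 higher and 7 lower (8 and 7 with library totals). Epc1, a scaffold of the Kat5 complex, changed by 1.19 ± 0.10 (adjusted p = 3.14e-06), the INO80 subunit Nfrkb by 1.14 ± 0.11 (adjusted p = 5.64e-06) and Epc2 by 1.34 ± 0.14 (adjusted p = 1.36e-05). Those that fell were Actr5, Actr6, Actr8, Vps72, Znhit1, Uchl5 and Ruvbl1, from -1.08 (Actr5) to -0.21 (Ruvbl1), and the actin-related proteins among them are INO80 or SRCAP subunits.

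No SNF2 helicase gene outside the 4 families rose: 2 of 4 fell. Smarcal1, which reanneals DNA at stalled replication forks, fell from 30.02, 29.6 and 29.5 CPM to 20.0, 18.5 and 19.8 CPM (-0.61 ± 0.089, adjusted p = 1.26e-04), with little spread in either group. Smarcad1, which acts at replicated heterochromatin, went from 77.98, 75.3 and 78.8 CPM to 57.95, 67.4 and 58.5 CPM (-0.33 ± 0.084, adjusted p = 0.00462). Atrx, which deposits the histone variant H3.3 with Daxx and was the most abundant of the 4 per kilobase, measured 171, 147 and 181 CPM in controls against 156, 139 and 97.8 CPM under pressure (-0.34 ± 0.15, adjusted p = 0.0624) and passed as lower with upper-quartile factors (0.012) and library totals (0.00477). Of its partners, Daxx changed by -0.29 ± 0.084 (adjusted p = 0.0112). The H3.3 genes went apart, H3f3a at -0.34 ± 0.083 (adjusted p = 0.0042) and H3f3b at 1.41 ± 0.070 (adjusted p = 1.34e-07). Hells, a remodeler needed for DNA methylation and typical of dividing cells, was low in both groups (2.75, 2.77 and 2.84 CPM against 2.74, 2.98 and 2.46 CPM, adjusted p = 0.935). Of 15 replication and mitosis genes 7 were higher (Mcm2, Mcm4, Mcm5, Mcm6, Mcm7, Pcna and Mki67) and 3 lower (Top2a, Cdk1 and Uhrf1), which became 4 and 4 with library totals.

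Of the 3 remaining symbols, Chd3os fell from 10.4, 9.23 and 7.66 CPM to 3.43, 3.47 and 3.19 CPM (-1.44 ± 0.16, adjusted p = 1.88e-05). RefSeq lists that symbol as an older name of Rnf227, annotated as a long noncoding RNA on chromosome 11 from 69340796 to 69342641, next to Chd3, which spans 69343273 to 69369406 and fell too. Ino80dos, which lies opposite Ino80d and shares 431 exonic bases with it, changed by 0.32 ± 0.14 (adjusted p = 0.0671), and the pseudogene Smarca5-ps by 0.0061 ± 0.24 (adjusted p = 0.983). The strand setting of the counting is not given in the sources used here, so reads from the bases that Ino80d and Ino80dos share cannot be told apart. How reads matching both Smarca5 and its pseudogene were assigned is not stated either, which leaves the value of Smarca5-ps uncertain.

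The libraries did not contribute evenly. Pressure replicate 3 was the lowest of the 3 pressure libraries for 40 of the 57 genes (70.2%) and for 22 of the 26 that rose (84.6%), against 39.6% of all tested genes, and pressure replicate 1 was the highest for 39 (68.4%, against 33.2%). Control replicate 2 was the lowest control for 33 (57.9%, against 35.6%). The remodeler genes have many annotated exonic bases, with a median of 8212 against 4396 for all tested genes. Of 56 with a known length, 17 reach 12000 bases. This length is the union of exons over all annotated forms of a gene, not that of a transcript. Among all 672 tested genes of 12000 bases or more, pressure replicate 3 lay a median of 0.33 (log2) below the mean of the other pressure libraries and control replicate 2 a median of 0.16 below the other controls. In the 1743 genes under 2000 bases they lay 0.19 and 0.088 above. For the 17 remodeler genes of 12000 exonic bases or more, the values of pressure replicate 3 and control replicate 2 were -0.44 and -0.21. The median log2 change over all genes was -0.031 in the shortest of these length bins and 0.057 in the longest. Without pressure replicate 3, 29 genes rose and 14 fell, Arid1a, Arid2 and Chd8 being the 3 added. Atrx passed as lower without pressure replicate 1 (adjusted p = 0.0154) or control replicate 2 (0.0430). Chd1l and Ino80dos passed as higher without pressure replicate 1 (adjusted p = 0.0236 and 0.04635). With an offset for exonic length, chosen after these values were seen, 28 rose and 14 fell. Arid1a, Chd1l and Ino80dos were then added as higher and Atrx as lower (adjusted p = 3.17e-04), while Chd6 and Smarcb1 lost their calls.

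**Figure D4:**
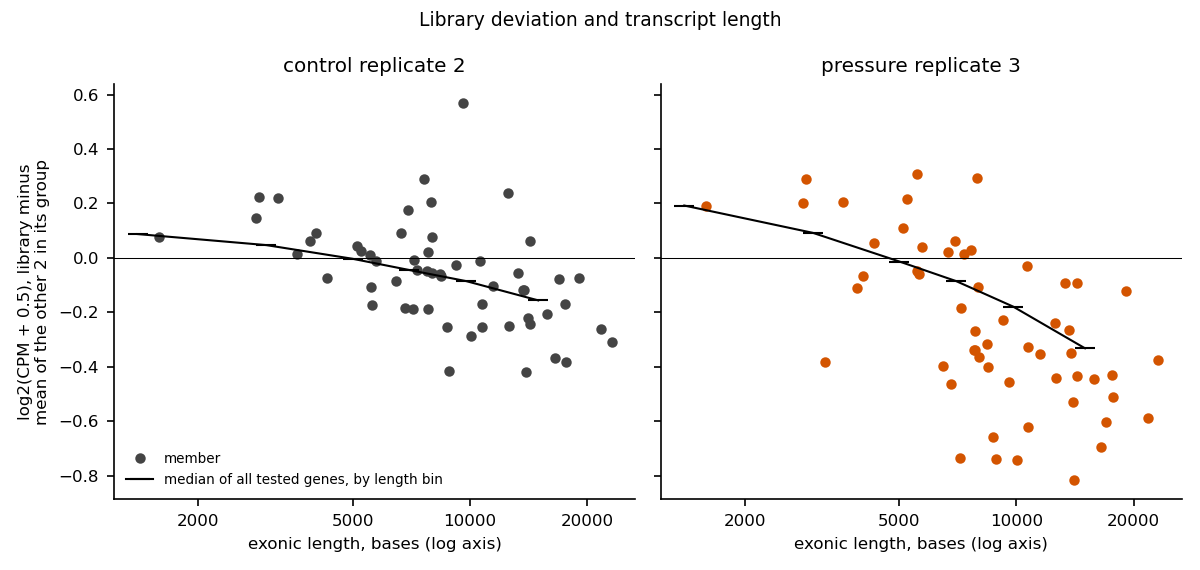
Deviation of control replicate 2 (left, grey) and pressure replicate 3 (right, orange) from the mean of the other 2 libraries of their group, in log2(CPM + 0.5), against exonic length (bases, log axis); points are the 56 genes with a known length and black marks are medians of all tested genes in 6 length bins, drawn inside each bin. Both libraries lie lower for genes with more exonic bases, and pressure replicate 3 more so, at a median of -0.33 in the longest bin.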

How the data were processed

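RNA from 3 control and 3 pressure samples was sequenced as single reads of 101 bases from stranded mRNA libraries, per the labels' protocols. Values deposited for each gene symbol are expected counts, estimates that can be fractional. TopHat2 2.2.1, Cufflinks 2.2.1 and mm10 are named in the submitters' processing notes; the sources used here do not give the program that counted reads, its use of strand or its gene models. Samples were grouped by title.

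Counts were rounded, genes kept by filterByExpr (minimum count 10, total 15), scaled by TMM and tested with edgeR 4.0.16 (quasi-likelihood, no covariates, two-sided, Benjamini-Hochberg over 12892 genes; R 4.3.3), after the script was tested on simulated data. A standard error is the size of the log2 change divided by the square root of F. Exonic lengths are the union of all exons annotated for a gene in GENCODE M21, and promoters came from RefSeq (GRCm38.p6). Ratios used counts plus 0.5. The genes and lists were chosen with earlier results of these data known. Values per library are given, in each class, for up to 3 genes called in each direction with the largest change and the gene most abundant per kilobase, with Smarca4, Smarca2, Smarcc1, Brd9 and Hells added after their values were seen; of each partner list up to 3 called genes with the smallest p are named, and the others named beside them were likewise added. DESeq2 1.42.0, limma-voom 3.58.1, other scalings, filters and thresholds, and left-out libraries were alternatives. Values of 1 gene, counted in the totals, and of 1 pair are not reported here.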

Additional observations from a re-analysis of the deposited data

How the results depend on the processing

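Across DESeq2, limma-voom, RLE and upper-quartile factors, both low-count filters, an adjusted p of 0.01, the length offset and the 6 fits that leave out a library, the counts of risen and fallen remodeler genes, of partner genes and of all genes stayed within 1.5 times of those reported. Library totals alone gave 22 fallen remodeler genes in place of 14, and a 2-fold minimum left 5 risen and 3 fallen remodeler genes, 6 and 2 partner genes and 3006 genes in all (1243 higher and 1763 lower). No called remodeler gene changed sign under these settings. With a library left out, 22 to 29 remodeler genes rose and 12 to 14 fell, and 34 of the 40 calls held in all 6 such fits; Ino80d, Ino80e, Chd4, Chd5, Chd6 and Smarcb1 were the others. Whether sample numbers pair the libraries is not labelled. Deviations from the group mean correlated at 0.13, -0.23 and -0.13 between libraries of the same number. Deviations from a mean of 3 depend on each other, so these values cannot settle it. The replicate block gave 25 risen and 13 fallen remodeler genes, 25 and 13 partner genes, and 8384 genes in all (4069 higher and 4315 lower), losing Chd6 and Smarcb1. Depth limits Smarca1 and Arid3c, with at most 1 count in a library.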

Other observations

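Gene length and promoter composition are given here by direction of change. The 26 that rose spanned a median of 78050 bases of genome and had 8982 exonic bases, and the 13 of 14 fallen genes with an annotation spanned 33590 bases and had 5728 exonic bases, while the 17 that passed in neither direction spanned 62080 bases and had 10630 exonic bases. All tested genes with a unique annotation spanned a median of 23020 bases. Promoter windows were matched for 18 of the risen, 10 of the fallen and 14 of the remaining tested genes, with medians of 32, 28 and 26.5 CpG dinucleotides in 300 bases, against 22 over all tested genes with a window. These values are descriptions of the genes listed and carry no test.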
